A study of Rattus norvegicus with 2 samples.

Results

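Genes that pump calcium into the sarcoplasmic or endoplasmic reticulum, hold it there and release it were followed in 2 RNA-seq libraries of cultured neonatal rat ventricular cells. The 10 genes were taken by symbol: the pump genes Atp2a2 and Atp2a3, the pump inhibitor gene Pln, the ryanodine receptor genes Ryr1 and Ryr2, the inositol trisphosphate (IP3) receptor genes Itpr1, Itpr2 and Itpr3, and the calsequestrin genes Casq1 and Casq2. Of these, 9 were measured among 16846 gene symbols, and Ryr1 was not analysed here. The third pump gene Atp2a1 and the third ryanodine receptor gene Ryr3 were not analysed here either.

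The cells were Rattus norvegicus ventricular cells of postnatal day 0, plated after 2 h of pre-plating and called cardiomyocytes, with a stated purity above 90%. The control group held 1 library, from cells given empty adeno-associated virus (AAV) by the treatment tag and mock-transduced by the protocol. Its treatment time was also 7 days. The inhibitor group held 1 library, from cells given AAV2/9 that carried short hairpin RNAs against miR-99/100 and let-7 (let-7a/c in the protocol), for 7 days; it is called the inhibitor library here and anti-miR in the plots. Strain and number of animals are not given in the sources used here, and no deletion or further treatment is named for either group. With 1 library per group no difference below has a replicate check, so every ratio compares these libraries and not the conditions. Depth on genes was 16031780 reads for the control and 14815846 for the inhibitor library.

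The inhibitors were aimed at miRNAs of 2 seed groups, shown here because they are the treatment. Capitals mark the seed (bases 2 to 8), by which a miRNA pairs with its targets. Sequences are RefSeq entries on build GRCr8. No entry for miR-99a was among those used, so only the miR-99b form of miR-99 is shown.
rno-let-7a-5p: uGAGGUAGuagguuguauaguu
rno-let-7c-5p: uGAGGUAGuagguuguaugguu
rno-miR-100-5p: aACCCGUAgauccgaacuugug
rno-miR-99b-5p: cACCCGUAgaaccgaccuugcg
The let-7 pair shares the seed GAGGUAG with 7 further mature miRNAs of the table used, 9 in all, and miR-100 and miR-99b share ACCCGUA. Poly(A) libraries do not measure mature miRNAs, so the knockdown was not read from them.

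In a heart muscle cell, calcium entering through the L-type channel opens ryanodine receptors on the sarcoplasmic reticulum, and the released calcium drives contraction. The SERCA pump then returns calcium to the store, phospholamban holds the pump back until it is phosphorylated, and calsequestrin buffers calcium inside the store. IP3 receptors release calcium from the endoplasmic reticulum of most cell types after phospholipase C signalling. Atp2a2, Ryr2, Casq2 and Pln are the cardiac members, Ryr1 and Casq1 the skeletal muscle forms, and Atp2a3 and the IP3 receptor genes are more widely expressed. Atp2a2 falls in both classes, since its SERCA2a form is typical of heart and its SERCA2b form is found in most cells.

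Atp2a2 was by far the most abundant in both libraries, each IP3 receptor gene stood above Ryr2, the only ryanodine receptor gene measured, and Ryr2 was almost undetected. Between libraries, Casq2 and Atp2a3 were higher and Casq1 lower in the inhibitor library, by more than counting error but inside the range of ratios seen in genes of like level. Atp2a2, the IP3 receptors and Pln differed by less than 1.5-fold.

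Levels of different genes were compared as RPKM, reads per kilobase of exon per 1000000 reads on genes, with exact Poisson 95% intervals that cover counting error only. In the control, Atp2a2 stood at 63.5 RPKM (61.9 to 65.2), followed by Itpr1 at 10.9 and Itpr2 at 6.38. Atp2a3 followed at 4.22, Pln at 3.74 and Itpr3 at 3.04, then Casq2 at 1.94 and Casq1 at 1.32. Ryr2 came last, listed at 0. Counting intervals overlapped between Atp2a3 and Pln, between Pln and Itpr3 and between Casq2 and Casq1. Overlap is not a test of a difference, and the order within those pairs was not tested. In the inhibitor library Atp2a2 stood at 71.0 RPKM (69.2 to 72.9) and Itpr1 at 11.7, and Atp2a3 at 7.31 came before Itpr2 at 6.28. Casq2 at 4.23 came before Itpr3 at 3.58 and Pln at 2.9998, then Casq1 at 0.441 and Ryr2 at 0.0846. Intervals again overlapped for Atp2a3 with Itpr2, for Casq2 with Itpr3 and for Itpr3 with Pln. Among genes with at least 1 read, Atp2a2 lay at percentile 88.5 of RPKM in the control and Itpr1 at 47.1, whereas Casq2 lay at 15.4.

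**Figure D1:**
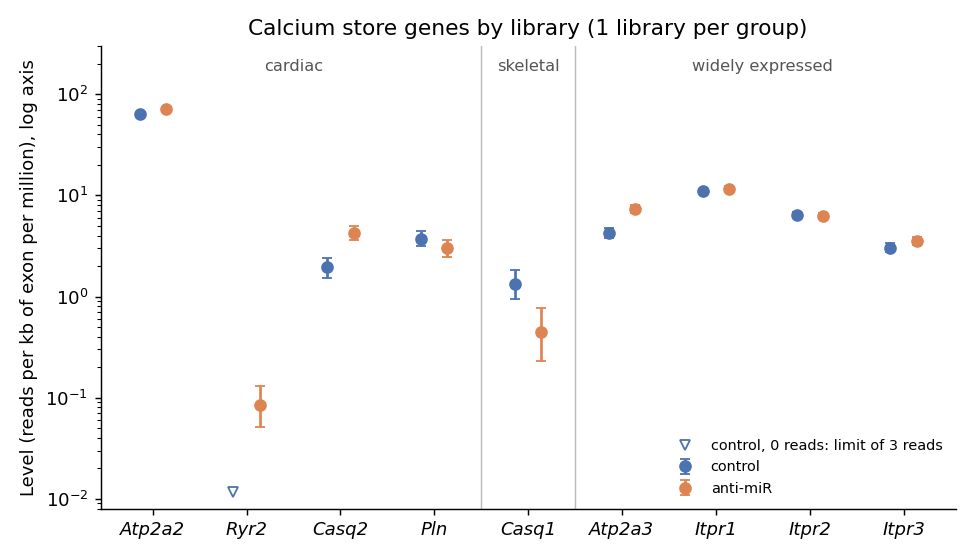
Level of each measured gene in RPKM on a log axis, with 1 point per library and bars for the Poisson 95% counting interval; the open triangle is the level that 3 reads would give where 0 reads were listed. Atp2a2 sits above 60 RPKM in both libraries, the IP3 receptors between 3.04 and 11.7, and Ryr2 lowest.

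The cardiac members did not form a block of like level. Atp2a2 made up most of their summed level of 69.2 RPKM in the control and 78.3 in the inhibitor library, and Ryr2, Casq2 and Pln together came to 5.68 and 7.31 RPKM. The widely expressed members summed to 24.6 and 28.8 RPKM. As shares of all measured members, the cardiac set held 72.8% in each library, the widely expressed set 25.8% and 26.8%, and Casq1, the only skeletal member measured, 1.39% and 0.410%. The cardiac share rests on placing Atp2a2 in that set, although its SERCA2b form, found in most cells, was not told apart. Without Atp2a2, the cardiac members lay below the widely expressed set in both libraries. The summed levels were 1.13-fold higher for the cardiac and 1.17-fold higher for the widely expressed set in the inhibitor library.

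The labelled cell type was set against its defining genes. Of 13 cardiomyocyte markers measured, 5 were listed at 0 in the control and 1 in the inhibitor library, and the median level was 0.475 and 0.955 RPKM. Their sum was 243 and 280 RPM (reads per 1000000 reads on genes), most of it from Tnnt2 and Actc1. Myh6, the alpha cardiac myosin, had 0 and 23 reads, and Tnni3, cardiac troponin I, had 0 and 5. Gapdh, a glycolysis gene that every cell uses, had 45 and 34 reads, and Rpl38, of the large ribosomal subunit, 0 in both. Gapdh and Rpl38 were picked with their values in view. Whether low counts of these genes, or of Myh6 and Tnni3, reflect low expression or undercounting was not tested. The 10 fibroblast markers held 10.2% and 10.4% of all reads and the 11 macrophage markers summed to 7170 and 7876 RPM. In such a bulk RNA pool, fewer cells of a type and less RNA per cell cannot be told apart.

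Atp2a2 (rn4 chromosome 12, 35266600 to 35316237, plus strand) encodes SERCA2. Its reads numbered 5671 in the control and 5862 in the inhibitor library, or 354 and 396 RPM. The ratio was 1.12 with an exact Clopper-Pearson counting interval of 1.08 to 1.16. The log2 ratio, computed as log2((anti-miR + 0.1)/(control + 0.1)) of RPM values, was 0.16. Of the 500 genes nearest in level, the central 95% ran from −0.36 to 0.30, with Atp2a2 inside, and 30.2% of those genes differed at least as much in either direction. One value per gene was deposited over the exons of 1 transcript, so SERCA2a and SERCA2b were not told apart.

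Atp2a3 (chromosome 10, 59853363 to 59884087) encodes SERCA3, a pump known from blood cells, platelets and endothelium. It had 301 and 482 reads, or 18.8 and 32.5 RPM, higher in the inhibitor library by 1.73-fold (1.497 to 2.01). Its log2 ratio of 0.79 stood at percentile 96.4 of like-level genes, inside their range of −0.65 to 0.87. Endothelial markers went both ways: of 7 averaging 1 RPM or more, 4 were higher and 1 lower by at least 1.5-fold, beside 10.8% and 8.56% of all genes over that floor, and the 9 measured summed to 63.2 and 99.2 RPM. Flt1 had 24.7 and 44.9 RPM, Esam 286 and 428 reads, Tek 56 and 114, Egfl7 71 and 89 and Pecam1 0 and 50. In the other direction, Vwf had 47 and 3 reads and Tie1 158 and 120. The Tie1 ratio was 0.822 with a counting interval of 0.643 to 1.05, which includes 1. Pecam1 and Vwf passed the floor through 1 library only. Pecam1 was counted over 1003 bases of exon within chromosome 10, 96056220 to 96057224, which may be only part of the gene. Cdh5 had 0 and 1 reads and Emcn 0 in both. Of 8 lymphocyte and platelet markers measured, 6 were listed at 0 in both libraries, Gp9 and Cd3e among them, and the sum was 400 and 298 RPM from Pf4 and Cd4. The 11 macrophage markers, 0 of them at least 1.5-fold apart, also went both ways: Lyz2 had 2937 and 3937 RPM, and the other 10 summed to 4233 and 3938 RPM. The part of these cells in the Atp2a3 difference was not tested.

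Within the pump family, Atp2a3 held 5.04% of reads in the control (Clopper-Pearson 95% interval 4.50 to 5.63) and 7.60% in the inhibitor library (6.96 to 8.28), intervals that do not overlap. Per kilobase, its share was 6.23% and 9.33%. Atp2a2 stood 15.05-fold above Atp2a3 in RPKM in the control and 9.71-fold above it in the inhibitor library.

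Pln (chromosome 20, 32000364 to 32010111) encodes phospholamban. It had 135 and 100 reads, or 8.42 and 6.75 RPM, a ratio of 0.802 (0.613 to 1.05). That interval includes 1, so this depth did not resolve a difference, and the log2 ratio of −0.31 lay well inside the like-level range of −1.44 to 1.32. In RPKM, Atp2a2 exceeded Pln 16.97-fold in the control and 23.7-fold in the inhibitor library. Pln held 2.33% of the reads of the pair (1.95 to 2.75) and 1.68% (1.37 to 2.04). These intervals overlap, which does not test the difference in share. The related pump inhibitor gene Sln, of sarcolipin, was listed at 0 in both.

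The calsequestrins went in opposite directions. Casq2 (chromosome 2, 197182938 to 197239201), the cardiac form, was counted with 76 reads in the control and 153 in the inhibitor library, or 4.74 and 10.3 RPM. The ratio was 2.18 (1.64 to 2.91) and the log2 ratio 1.11, at percentile 95.4 of like-level genes and inside their range of −1.44 to 1.32. Casq1 (chromosome 13, 88200506 to 88210418, minus strand), the skeletal form, had 39 and 12 reads, or 2.43 and 0.810 RPM. Its ratio was 0.333 (0.159 to 0.649) and its log2 ratio −1.48. Genes of that level ranged from −4.49 to 5.23 and 34.4% of them differed at least as much, so the Casq1 value lies in a part of the data where large ratios were common.

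Casq2 held 66.1% of calsequestrin reads in the control (56.7 to 74.7) and 92.7% in the inhibitor library (87.6 to 96.2). Per kilobase the shares were 59.4% and 90.5%, or a Casq2 level 1.46-fold and 9.58-fold above Casq1. Markers of muscle moved in several ways beside this. Of 8 cardiomyocyte markers averaging 1 RPM or more, 3 were higher and 2 lower by at least 1.5-fold, beside 10.8% and 8.56% of all genes, with Myh7 at 99 and 171 reads and Myl2 at 30 and 5. Myl2 and Ldb3 (0 and 43 reads) passed the floor through 1 library only. Of 13 skeletal muscle markers, 8 were at 0 in both libraries, Myod1, Myog and Ckm among them, and the sum was 102 and 94.7 RPM, of which Acta1 had 96.7 and 83.4. Tnnt3, of fast skeletal troponin T, had 68 and 160 reads, higher by 2.55-fold (1.91 to 3.43) and so opposite in direction to Casq1. Their part in the calsequestrin ratios was not tested.

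**Figure D2:**
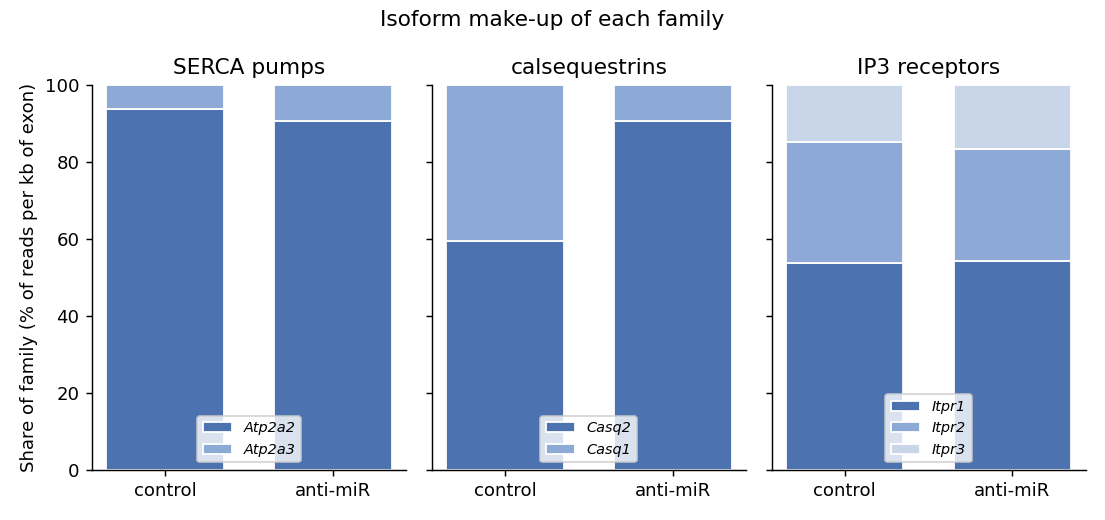
Share of each isoform in its family, in percent of reads per kilobase of exon, for the pumps (Atp2a2, Atp2a3), calsequestrins (Casq2, Casq1) and IP3 receptors (Itpr1, Itpr2, Itpr3), with 1 bar per library. Casq2 goes from 59.4% to 90.5%, while Itpr1 stays at 53.7% and 54.3%.

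Ryr2 (chromosome 17, 68959208 to 69546149), the release channel of the heart, was listed at 0 reads in the control and had 20 in the inhibitor library, spread over an exon length of 15964 bases. By counting error alone, a count of 0 in the control allows up to 3 reads, or 0.0117 RPKM. The inhibitor library's level was 0.0846 RPKM (0.0517 to 0.131). Listed zeros were common beside counts of this size. Of 394 genes with 15 to 25 reads in the inhibitor library, 99, or 25.1%, were listed at 0 in the control, and of 385 such genes in the control, 77, or 20.0%, were listed at 0 in the inhibitor library. With zeros this common, and Rpl38 also listed at 0, no fold is given for Ryr2. Its mean of 0.675 RPM lay below the floor of 1 RPM used for counts of genes.

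The IP3 receptors held nearly all reads counted on the release channels measured, which were Ryr2 and these 3 genes. Itpr1 (chromosome 4, 143705360 to 144030052) had 1697 and 1678 reads, or 106 and 113 RPM, a ratio of 1.07 (0.9995 to 1.15). Itpr2 (chromosome 4, 183677606 to 184066130, minus strand), the form most often described in heart muscle cells, had 1070 and 972 reads, or 66.7 and 65.6 RPM, a ratio of 0.983 (0.9003 to 1.07). Itpr3 (chromosome 20, 5292430 to 5357502) had 426 and 463 reads, or 26.6 and 31.3 RPM, a ratio of 1.18 (1.03 to 1.34). Their log2 ratios of 0.10, −0.02 and 0.23 lay between percentiles 40.6 and 72.4 of like-level genes. Summed, the receptors stood at 20.3 and 21.5 RPKM. The inhibitor library's level of Itpr1 was 138-fold that of Ryr2 in RPKM, the latter resting on 20 reads.

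The make-up of the IP3 receptors was close in both libraries. Itpr1 held 53.1% of receptor reads (51.4 to 54.9) and 53.9% (52.1 to 55.7), Itpr2 33.5% (31.9 to 35.2) and 31.2% (29.6 to 32.9), and Itpr3 13.3% (12.2 to 14.6) and 14.9% (13.6 to 16.2). The intervals overlapped for each, which does not test a difference. With Ryr2 counted among the release channels, it held 0 of 3193 reads in the control. In the inhibitor library its share was 0.638% (0.390 to 0.984). By counting error alone, the 0 allows up to 0.0940%. That limit does not cover listed zeros as common as those above, so the shares were not compared.

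Across the members, 8 had a mean of at least 1 RPM. Of these, 2 (Atp2a3 and Casq2) were at least 1.5-fold higher in the inhibitor library, where 10.8% of 10365 genes over the same floor were, and 1 (Casq1) was at least 1.5-fold lower, where 8.56% were. At 2-fold, 1 member was higher against 4.85% of genes and 1 lower against 3.56%. Casq1 passed the floor through its control level alone. An exact binomial test on the reads of the libraries called 5 of 9 members higher and 1 lower, where it called 31.6% and 25.3% of all genes with a read. The median log2 ratio of the 8 was 0.13, beside 0.03 over all 10365 genes. All 9 measured members lay inside the like-level range, and 3 of 9 (Itpr1, Itpr2 and Pln) had a counting interval that included 1. For Ryr2 the place inside was fixed beforehand. No split of its mean of 0.675 RPM between the libraries could reach the ends of its range, −4.13 and 4.26.

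**Figure D3:**
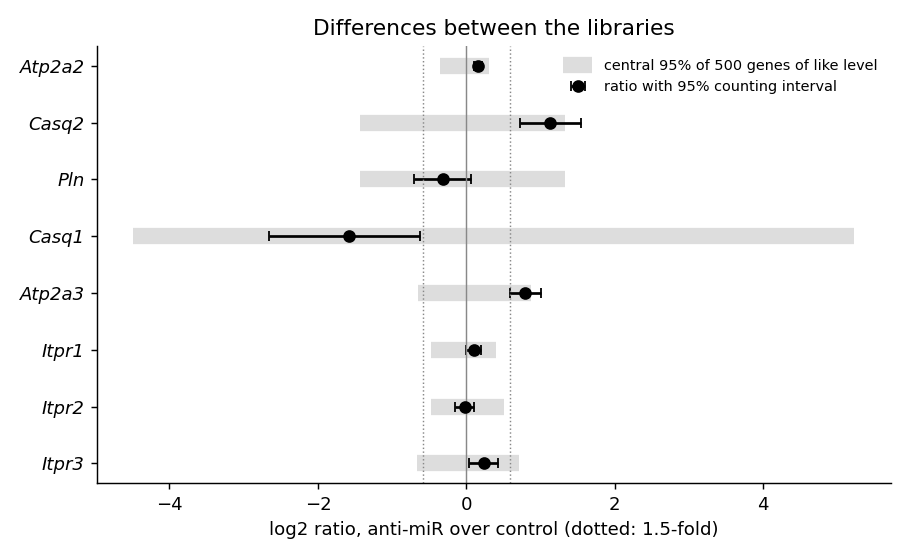
Ratio of reads, anti-miR over control, on a log2 axis for the 8 members with a mean of at least 1 RPM, with 95% counting intervals and no pseudocount; grey bars give the central 95% of log2 ratios of the 500 genes nearest in level. Atp2a3, Casq2 and Casq1 lie beyond 1.5-fold, and every point lies on its grey bar.

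Other genes of calcium handling were read from 6 lists. Of 82 measured over all lists, 64 had a mean of at least 1 RPM, of which 6 (beside 10.8% of all genes) were higher and 3 (beside 8.56%) lower by 1.5-fold or more; the median log2 ratio was 0.04. Of these 9 genes, 5 passed the floor through 1 library only, namely Cacna1d, Cacna1h, Orai2, Plcd4 and S100a1. Among regulators of the pump (8 genes over the floor, 1 higher and 1 lower, median 0.00), the phosphatase subunit genes Ppp1ca and Ppp1cb were the most abundant, with log2 ratios of 0.17 and −0.21. S100a1, a calcium sensor of heart muscle, was highest at 1.69 on 10 and 33 reads, and Prkar1a, a regulatory subunit of protein kinase A, lowest at −0.62. Prkar1a was counted over 363 bases of exon within chromosome 10, 99107042 to 99107407, which may be only part of the gene.

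Partners of the release unit over the floor had 0 of 8 genes at least 1.5-fold apart and a median of 0.10. The shares of all genes, 10.8% higher and 8.56% lower, stand beside this count and those of the lists below. Fkbp1a, whose protein binds ryanodine receptors, had 340 and 366 RPM. The reticulum potassium channel genes Tmem38b and Tmem38a marked the ends of the list at 0.40 and −0.23. Of the 14 measured, 6 were listed at 0 in the control and 2 in the inhibitor library, beside 35.2% and 32.5% of all genes. The muscle junction genes Trdn, Jph1 and Hrc were listed at 0 in the control, with 4, 11 and 8 reads in the inhibitor library, and were chosen after their values were seen. As for Ryr2, reads were few.

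Entry and exit at the cell surface showed 2 of 11 genes higher and 1 lower, with a median of 0.04. Slc8a1, the sodium-calcium exchanger of the heart, had 181 and 184 RPM, and Atp2b1, a plasma membrane calcium pump, 88.1 and 93.3 RPM. The T-type channel gene Cacna1h was highest at 1.97 on 6 and 26 reads, and the L-type channel gene Cacna1d lowest at −1.67 on 38 and 10 reads. Store-operated entry had 0 of 7 genes higher, 1 lower and a median of −0.24. Tmem66, a regulator of that entry, and Tmco1, a calcium leak channel, were the most abundant at −0.05 and −0.41, and the channel genes Orai1 and Orai2 marked the ends at 0.08 and −0.87.

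Calcium binding proteins of the endoplasmic reticulum were far more abundant than calsequestrin. The 10 genes summed to 10493 and 10363 RPM, with 0 at least 1.5-fold apart and a median of −0.04. Calr, of calreticulin, stood at 942 and 921 RPKM, 486-fold and 218-fold the level of Casq2. The chaperone gene Hspa5 had a log2 ratio of −0.05, and the reticulocalbin genes Rcn3 and Rcn2 marked the ends at 0.11 and −0.21. Genes of IP3 signalling had 3 of 20 higher, 0 lower and a median of 0.14. Ahcyl1, whose protein binds IP3 receptors, and the phospholipase gene Plcg1 were the most abundant at 0.04 and 0.07. Bcl2, whose protein also binds these receptors, was highest at 1.89 on 28 and 100 reads, and the IP3 kinase gene Itpkc lowest at −0.53.

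**Figure D4:**
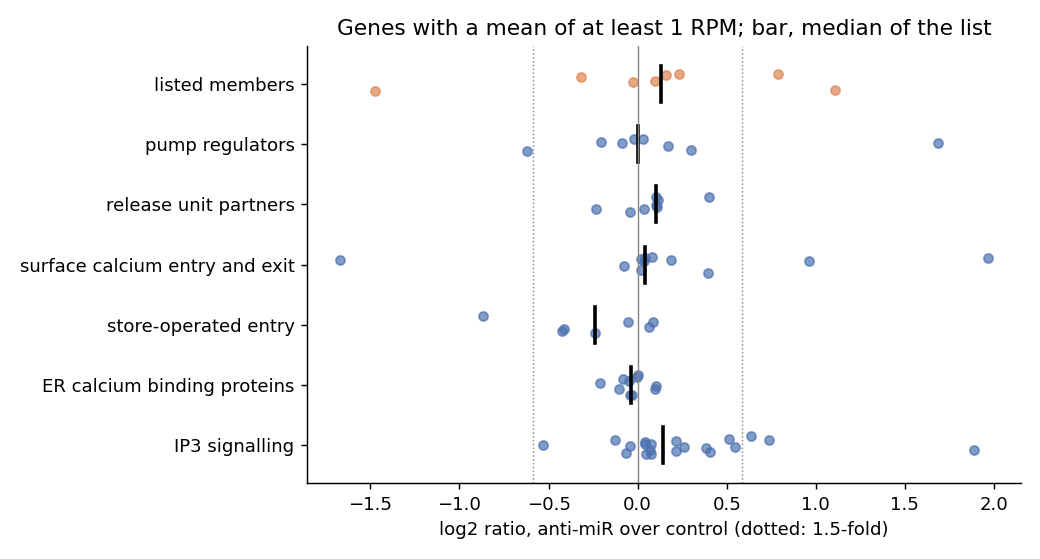
Log2 ratio, anti-miR over control, of each gene with a mean of at least 1 RPM, by list, with the list's median as a bar and 1.5-fold as dotted lines; vertical scatter within a list has no meaning. Medians lie between −0.24 and 0.14, and few genes lie beyond 1.5-fold.

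Sequences upstream of the members were described from RefSeq windows on build GRCr8, which is not the build of the RNA coordinates. All 10 genes had a window, and the 250 bases before the start were read. The most abundant member, Atp2a2, had the most CpG dinucleotides, 45 in a stretch of 80.0% GC, more than in 99.6% of all 33469 windows. Atp2a3 had 27 CpG, Itpr3 28, Itpr2 25 and Ryr2 23, whereas Itpr1 had 9, Casq2 5, Casq1 3 and Pln 3, beside a median of 5 over all windows. CpG content did not order the levels, since Itpr1 with 9 stood above Itpr3 with 28 in RPKM. Ryr2, with 23, had almost no reads.

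The stretches of Atp2a2, Casq2 and Pln are shown because they set a CpG-rich start beside those of scarcer cardiac members, with 46.4% GC in Casq2 and 44.0% in Pln against a median of 51.2% over all windows. Capitals mark GGGCGG and CCAAT on either strand in Atp2a2, a MEF2 consensus match in Casq2 and a GATA match in Pln. They lie at chr12:39733269-39733518, chr2:192214306-192214555 and chr20:33172244-33172493, all on the plus strand.
Atp2a2: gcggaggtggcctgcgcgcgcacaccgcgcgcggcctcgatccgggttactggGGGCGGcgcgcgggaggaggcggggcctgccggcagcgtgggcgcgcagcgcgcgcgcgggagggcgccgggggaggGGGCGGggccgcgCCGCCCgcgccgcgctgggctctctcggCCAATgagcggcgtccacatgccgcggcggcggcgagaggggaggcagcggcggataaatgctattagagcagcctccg
Casq2: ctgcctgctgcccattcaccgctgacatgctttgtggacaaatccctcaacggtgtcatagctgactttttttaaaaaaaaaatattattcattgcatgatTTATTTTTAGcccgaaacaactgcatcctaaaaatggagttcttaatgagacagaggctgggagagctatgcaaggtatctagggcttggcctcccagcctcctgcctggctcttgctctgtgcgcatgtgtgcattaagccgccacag
Pln: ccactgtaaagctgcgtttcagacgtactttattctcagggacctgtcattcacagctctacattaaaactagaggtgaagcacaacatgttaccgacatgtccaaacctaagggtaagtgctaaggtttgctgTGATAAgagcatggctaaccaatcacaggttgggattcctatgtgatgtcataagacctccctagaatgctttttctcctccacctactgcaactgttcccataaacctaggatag
Casq2 was the only one of the 10 with a match to the MEF2 consensus, a site class of muscle promoters, from 149 to 140 bases before the start, and 2.96% of all windows held one. Pln was the only one with a GATA match (the letters AGATAA or AGATAG, or else TGATAA or TGATAG), from 116 to 111 bases before the start, beside 27.0% of all windows. GGGCGG stood in 7 of the 10, all but Casq2, Pln and Itpr1, beside 30.5% of windows, with 3 matches in Atp2a2. CCAAT stood in 5 of 10, beside 34.0%, Pln among them. TATAAA and the CArG consensus stood in 0 of 10, beside 12.9% and 1.497%. Both strands were searched, neighbouring GGGCGG matches may share bases, and a match describes letters only.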

How the data were processed

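Poly(A) RNA of 2 libraries was sequenced after strand-specific Illumina TruSeq preparation, per the labels' protocols. Each deposited value is a read signal for 1 gene after scaling. HOMER, per the file headers, counted reads over exons of rn4 transcripts on the strand opposite to the read, keeping 1 transcript per gene. The submitters' processing notes also list CASAVA 1.8.2 and STAR 2.2.0c, with no role stated. The header asks for unadjusted totals, yet both columns have the same total, so a scaling followed. Its method, and how reads with several matches were handled, are not given in the sources used here.

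Whole reads were recovered: 1 read is worth 0.962 units in the control column and 1.04 units in the other, and 100% of values up to 400 reads were whole within 0.005. Levels are RPM, or RPKM by the table's exon length. Counts of higher or lower genes use a mean of at least 1 RPM, a pseudocount of 0.1 RPM and a ratio of at least 1.5 or 2. Intervals and the limit for 0 reads (3 reads, 0.187 and 0.203 RPM) cover counting error alone, because each group has 1 library. The reads also carry no molecular identifiers. No p-value is given, with 1 library per group. As an alternative, recovered reads were compared by an exact binomial test (Benjamini-Hochberg at 0.05), which compares the libraries and not the conditions and called 3679 genes higher and 2942 lower of 11630 with a read. Other alternatives changed the scaling (edgeR 4.0.16 for trimmed means), pseudocount, floor and length correction. Read recovery, intervals and the binomial test were tested on simulated data. Python 3.11.15 and scipy 1.17.1 were used.

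The members and lists were chosen with earlier results of these data known. Genes named are all members and, in each list, the most abundant pair and the highest and lowest ratio over the floor; exceptions are stated, and 1 gene under this rule is not reported here. Rpl38, Gapdh, Plcd4 and the single marker genes were picked with their values in view. No gene was ranked by likeness of pattern, since 2 libraries give 1 ratio per gene. Of 16846 symbols, 15848 had an accession in the RefSeq table. Pln has a gene on the opposite strand at its place, which strand-specific counting separates. Reads shared by paralogs cannot be told apart.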

Additional observations from a re-analysis of the deposited data

How the results depend on the processing

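Other scalings shifted all ratios by at most 0.02 on the log2 scale downward and changed no count of members. No member ratio changed sign. Floor and pseudocount set the counts: with a floor of 10 RPM, 1 member was at least 1.5-fold higher and 0 lower, and at 2-fold 0 were higher and 0 lower, because Casq1, Casq2 and Pln were no longer counted. With a pseudocount of 1 RPM, 0 were 2-fold higher and 0 lower, and without a floor 2 were 2-fold higher, Ryr2 added. By the exact binomial test on reads, 5 members were higher (Atp2a2, Atp2a3, Ryr2, Itpr3 and Casq2) and 1 lower (Casq1), where 31.6% and 25.3% of all genes were called. Without length correction, the widely expressed members' sum was 1.11-fold higher. With a floor of 10 RPM, 0 genes of the pathway lists were higher and 1 (Prkar1a) lower. The share of all genes was not computed at other floors or pseudocounts. Those counts, of members and of lists, therefore have no background to be read against. No paired analysis was possible because each group has 1 library. Listed zeros limit Ryr2, as given above, and Casq1. Of genes with 26 to 50 reads in the control, where Casq1 falls, 5.95% were at 0 in the inhibitor library. Of those with 51 to 100 reads, 0.506% were. In the other direction, the shares at 0 in the control were 10.2% and 2.24%.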

Other observations

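Cacna2d1, an auxiliary subunit of voltage-gated calcium channels, was chosen after its values were seen. Its reads numbered 104 for the control and 189 for the inhibitor library, a ratio of 1.97 (1.54 to 2.52), at percentile 91.8 of like-level genes. The pore subunit gene Cacna1c stood at 402 and 424 reads, 1.14-fold (0.993 to 1.31), and Cacnb2, a further subunit gene, 184 and 175. Plcb3 and Plcg2, phospholipase C genes upstream of IP3 receptors and also chosen after their values were seen, had log2 ratios of 0.51 and 0.55, at percentiles 97.8 and 94.4. The range for genes of like level was −0.49 to 0.50 for Plcb3 and −0.66 to 0.71 for Plcg2.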
